A study of Mus musculus with 4 samples.

Results

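The regions described here are pairs of neighbouring eIF4A3 peaks separated by a gap of 75 to 110 nt, a distance in the range of short mouse introns. They were chosen by the distance alone: peaks were ordered along each chromosome and strand, and a pair qualified when 75 to 110 positions lay between the end of a peak and the start of the next. Of 24193 neighbouring pairs within 10 kb on the same strand, 1260 (5.21%) qualified, and they were made of 2467 of the 30763 peaks in the list. Pairs with a gap of 40 to 70 nt, 1037 in all, served as controls. The 112 pairs with a gap of 71 to 74 nt belong to neither set, and 95 peaks stood in a member pair on one side and a control pair on the other.

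The study mapped RNA bound by eIF4A3 in mouse embryonic stem cells of the J1 line (strain 129S4/SvJae), grown without feeder cells in serum and leukemia inhibitory factor and carrying no genetic change that the labels name. Enhanced crosslinking and immunoprecipitation (eCLIP) fixes proteins to RNA with ultraviolet light, here 400 mJ/cm2 at 254 nm, and sequences the fragments that an antibody pulls down. The libraries were 2 pulled down with an antibody to eIF4A3 and 2 input libraries without the pull-down, labelled as biological replicates and read as pairs of 50 bases. The series provides 1 peak list with a log2 fold change and a −log10 p for each peak, without stating what is divided by what. It holds no values per library, so no spread between replicates can be given and no difference here was tested against one.

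eIF4A3 is an RNA helicase that clamps RNA and anchors the exon junction complex. Splicing deposits this complex on messenger RNA a short way upstream of each junction between exons, and translation later strips it off. The exons on either side of an intron are apart in the genome by the length of that intron. Only peaks that reach the facing ends of such exons would therefore be spaced like the intron, while peaks in a single exon can lie at any short distance. The upstream exon of such a pair is the one that carries the complex deposited for the junction between them. The 5′ peak below is the one nearer the RNA's 5′ end, with the listed strand read as the strand of the RNA. That reading is an assumption.

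All positions are on mm9 as the list gives them. Which genes, exons or introns lie there is not reported, because the annotation used here is on GRCm38, and no bases are printed because no mm9 genome was used. Each fold change and −log10 p below is the authors' deposited value for that peak. Pairs of a locus resemble each other, so the 95% Wilson intervals given for shares of pairs cover counting error only and are too narrow. Read numbers are not in the list, and the depth behind each peak is unknown.

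Gaps of 75 to 110 nt came at 35.0 pairs per nt, against 33.5 per nt among control gaps and 18.6 per nt over the 36 nt above the window. Counts did not fall steadily with distance. From 60 to 74 nt there were 29.6 pairs per nt, and from 80 to 92 nt 42.1 per nt, 547 pairs in all. Neither stretch is part of the rule, and counts nearly as high occurred at shorter gaps. In classes of 6 nt, 33 to 38 nt held 266 pairs and 81 to 86 nt held 275. The most frequent gap in the window was 84 nt, with 60 pairs. The median member gap was 90 nt, and the quartiles were 83 and 100 nt. At the edges of the window the counts were 21 pairs at 74 nt and 26 at 75 nt, then 30 at 110 nt and 32 at the next position outside, so neither edge marks a step.

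**Figure D1:**
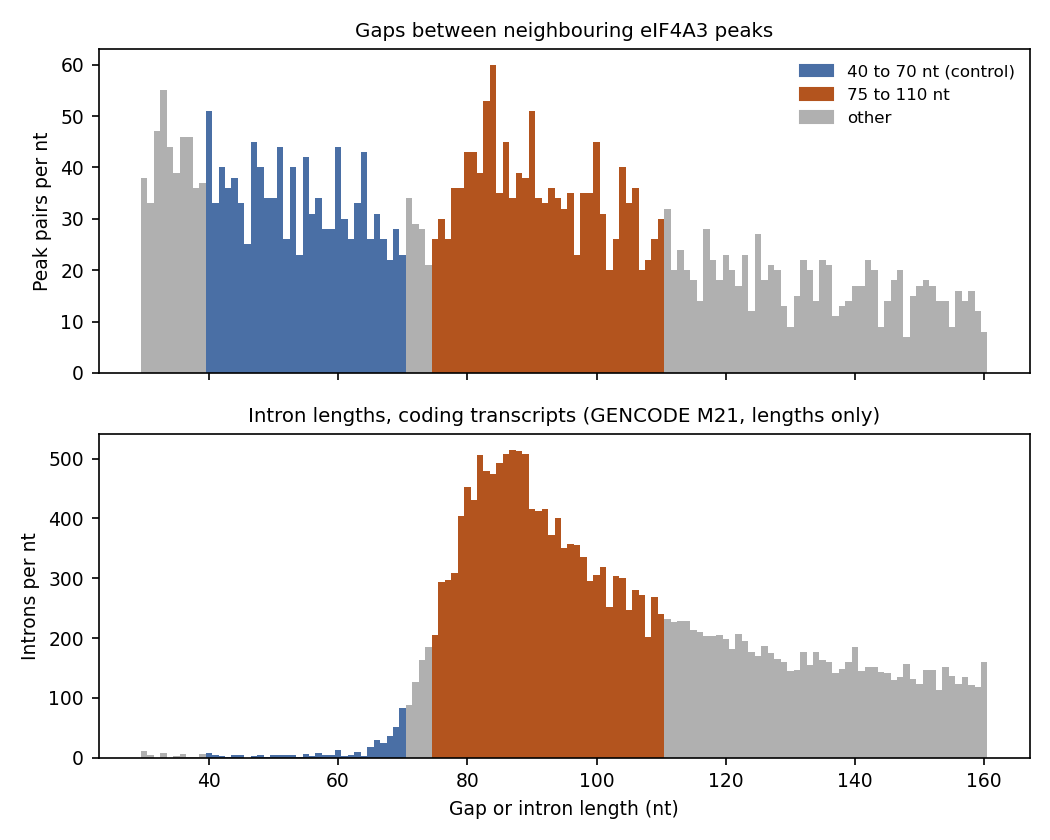
Top, number of neighbouring peak pairs at each gap from 30 to 160 nt. Bottom, number of introns of coding transcripts at each length, on the same axis in nt. Blue marks 40 to 70 nt and orange 75 to 110 nt. Introns are nearly absent from the blue range, while peak pairs fill it.

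Introns of coding transcripts offer a scale for these gaps, used as lengths only. Of 223282 distinct introns in GENCODE M21, 13089 (5.86%) were 75 to 110 nt long and 357 (0.160%) were 40 to 70 nt long. The most frequent intron length between 60 and 150 nt was 87 nt, with 515 introns. Per nt, introns of the member range outnumbered those of the control range 31.6 to 1, whereas peak gaps did so 1.05 to 1. Against the 36 nt above the window the figures were closer, 2.05 to 1 for introns and 1.89 to 1 for peak gaps. Control gaps are thus of a length that coding introns seldom have. Whether any given gap is an intron was not tested.

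The peaks of control pairs were unequal in width, and those of member pairs nearly equal. In control pairs the 5′ peak was the narrower one in 698 of 1037 pairs, and wider in 320 (30.9%, Wilson interval 28.1 to 33.7%). Its median was 24 nt (quartiles 12 and 44 nt), against 38 nt (25 and 54 nt) for the 3′ peak. In member pairs the 5′ peak was wider in 565 of 1260 (44.8%, interval 42.1 to 47.6%), narrower in 670 and equal in 25. The medians were 23 nt (quartiles 9 and 42 nt) for the 5′ peak and 24 nt (11 and 42 nt) for the 3′ peak. Among all neighbouring pairs within 10 kb the 5′ peak was wider in 49.8%. Member pairs thus lay between the controls and the whole list. With abutting peaks joined, the direction among members turned, and the 5′ side was the wider in 51.1%, against 32.4% of control pairs. Width shares its coordinates with the gap that chose the pairs, so these values are a description.

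**Figure D2:**
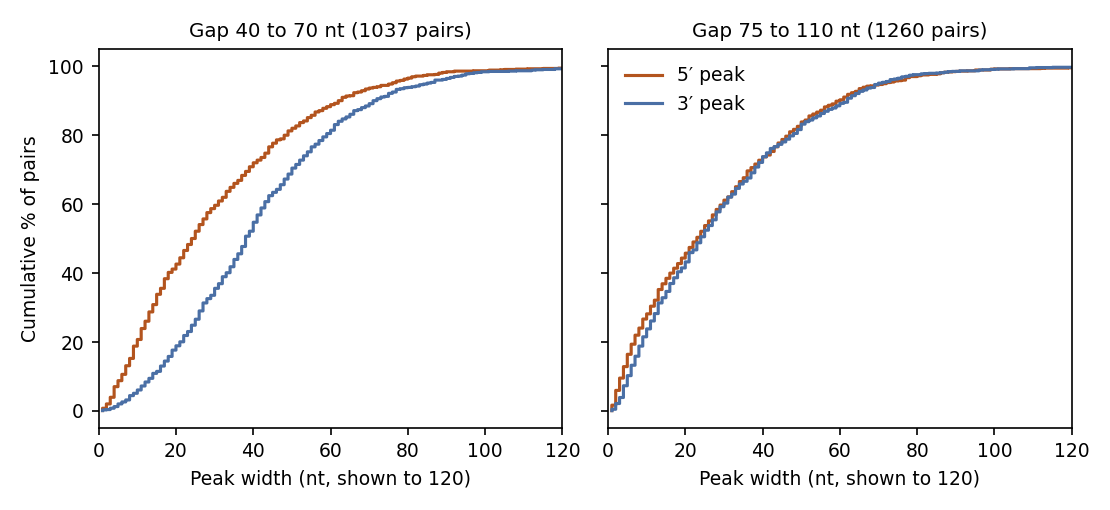
Cumulative percent of pairs by peak width in nt, for the 5′ peak (orange) and the 3′ peak (blue). In the 1037 control pairs (left) the curves are apart, with medians of 24 and 38 nt; in the 1260 pairs with gaps of 75 to 110 nt (right) they nearly coincide, with medians of 23 and 24 nt.

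The change came with distance and fell near the lower edge of the window. In 10 classes of 6 nt from 15 to 74 nt, the 5′ peak was wider in 27.9 to 39.0% of pairs. In the 6 classes of the member window the range was 39.1 to 47.6%, and in the 9 classes above it was 46.1 to 59.2%. Just outside the window, at 69 to 74 nt, the median widths were 25 nt (5′) and 36 nt (3′). Just inside, at 75 to 80 nt, they were 24 and 28 nt, and at 87 to 92 nt they were 23 and 21 nt. It was the 3′ peak that narrowed, while the 5′ peak kept a median of 22 to 24 nt through the window. At the upper edge the medians were 24 and 23 nt in the last 6 nt of the window, and 19 and 22 nt in the 6 nt above it.

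Very narrow peaks were frequent beside member gaps. At most 10 nt was the width of 355 of the 1260 5′ peaks (28.2%) and 300 of the 3′ peaks (23.8%). Among all neighbouring pairs within 10 kb the shares were 17.3% and 17.9%. Control pairs had 20.7% on the 5′ side and only 6.08% on the 3′ side, 63 peaks. Gaps in the 36 nt above the window gave 24.1% and 22.0%, close to the members. Both peaks were at most 10 nt in 9.13% of member pairs and 2.03% of control pairs (21 pairs), and both were at least 40 nt in 135 member pairs (10.7%) and 180 control pairs (17.4%). The width limits of 10 and 40 nt were chosen after the widths had been seen.

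The authors' list holds runs of abutting peaks, and some member gaps were bordered by such runs. The 5′ peak was the last of a run of abutting peaks in 340 member pairs (27.0%, Wilson interval 24.6 to 29.5%) and in 173 control pairs (16.7%, interval 14.5 to 19.1%). The 3′ peak was the first of a run in 286 member pairs (22.7%) and 236 control pairs (22.8%). Over the 36 nt above the window these shares were 24.9% and 24.7%. Over all 17831 pairs within 10 kb that did not abut they were 22.9% and 21.5%. On the 5′ side members were close to the gaps above the window and higher than all such pairs. On the 3′ side they lay between them. Runs stood on both sides of 109 member gaps and on neither side of 743. A run beside a member gap held up to 6 peaks on either side. With each run counted as 1 site, the sites beside member gaps had median widths of 34 nt (quartiles 16 and 51 nt) upstream and 31 nt (15 and 51 nt) downstream. Beside control gaps they were 27 nt (13 and 48 nt) and 43 nt (29 and 60 nt), and beside the gaps above the window 35.5 and 32 nt.

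Within those runs, the peak that touches a member gap was more often the narrower one. On the 5′ side of member gaps it had a median of 11 nt, against 27 nt for the peak next to it away from the gap, and it was the wider in 32.6% of 340 runs. On the 3′ side the medians were 19 and 22 nt, with the gap-side peak wider in 107 of 286 (37.4%). Control gaps showed the opposite order. There the gap-side peak had a median of 28 nt against 16 nt on the 5′ side (wider in 122 of 173, 70.5%) and 30 nt against 18 nt on the 3′ side (wider in 69.5% of 236). Gaps in the 36 nt above the window gave 16 nt against 24.5 nt on the 5′ side (wider in 63 of 166, 38.0%) and 22 nt for each on the 3′ side. In log2 fold change, the peak at the 5′ side of a member gap was higher than its outer neighbour in 203 of 340 runs (59.7%), with a median difference of 0.05, and above the window in 89 of 166 (53.6%). At the 3′ side it was higher in 135 of 286 (47.2%), and above the window in 86 of 165 (52.1%). Control gaps gave 90 of 173 (52.0%) at the 5′ side and 100 of 236 (42.4%) at the 3′ side. Over all 6362 abutting pairs of the list, the 3′ peak was higher in 52.2% and the 5′ peak in 47.2%. The gap-side peak is the 3′ one of its abutting pair at the 5′ side, and the 5′ one at the 3′ side. At the 3′ side the member share was thus that of the list. This look at runs was taken after other results were known, and the differences between members and controls were not tested.

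In log2 fold change the 5′ peak of member pairs was the higher more often than the 3′ peak, by a small margin. It was higher in 691 pairs (54.8%, Wilson interval 52.1 to 57.6%), lower in 567 and equal in 2. The same share was 49.7% over all neighbouring pairs within 10 kb and 51.5% (interval 48.5 to 54.5%) in control pairs, where 534 of 1037 were higher at the 5′ peak. Over the 36 nt above the window it was 50.7%. The median log2 fold change was 2.79 (quartiles 2.41 and 3.22) for 5′ member peaks and 2.75 (2.39 and 3.19) for 3′ member peaks. In control pairs the medians were 2.73 and 2.68. The median difference within a member pair, 5′ minus 3′, was 0.06, with quartiles of -0.28 and 0.41, so single pairs differed far more than the typical shift. At least a doubling in favour of the 5′ peak was seen in 62 of the 1260 member pairs and in favour of the 3′ peak in 58. The counts were 86 and 68 of 1037 control pairs, and 1049 and 1048 of 24193 neighbouring pairs within 10 kb. Such differences were thus a larger share of control pairs than of member pairs. With abutting peaks joined and their log2 fold changes averaged, the 5′ side was higher in 52.8% of member gaps.

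The 5′ peak was the higher in log2 fold change in more than 50% of member pairs on both strands of the genome. It was so in 341 of 640 plus-strand pairs (53.3%, Wilson interval 49.4 to 57.1%) and 350 of 620 minus-strand pairs (56.5%, interval 52.5 to 60.3%). Control pairs had 53.7% (306 of 570) on the plus strand and 48.8% (228 of 467) on the minus strand. Members thus exceeded controls on the minus strand only. By 6 nt classes, the share was 53.3% at 75 to 80 nt, 57.1% at 81 to 86 nt, 56.8% at 87 to 92 nt, 56.9% at 93 to 98 nt, 54.8% at 99 to 104 nt and 47.9% in the last 6 nt of the window. Below the window it ranged from 43.6 to 58.4% with no steady course, and above 50% in 3 of 10 classes. In the 6 nt just past the window it was 53.1%. Width moved with it: the 5′ peak was higher in 57.6% of the 670 member pairs in which it was the narrower and in 50.6% of the 565 in which it was the wider. Among the 257 member pairs whose peaks differed by at most 5 nt in width, it was higher in 142 (55.3%). The same share in control pairs whose peaks differed by at most 5 nt was 56.6% (94 of 166), though their peaks were wider than those of the members. Taking 1 pair for each cluster left 53.5% of 783.

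**Figure D3:**
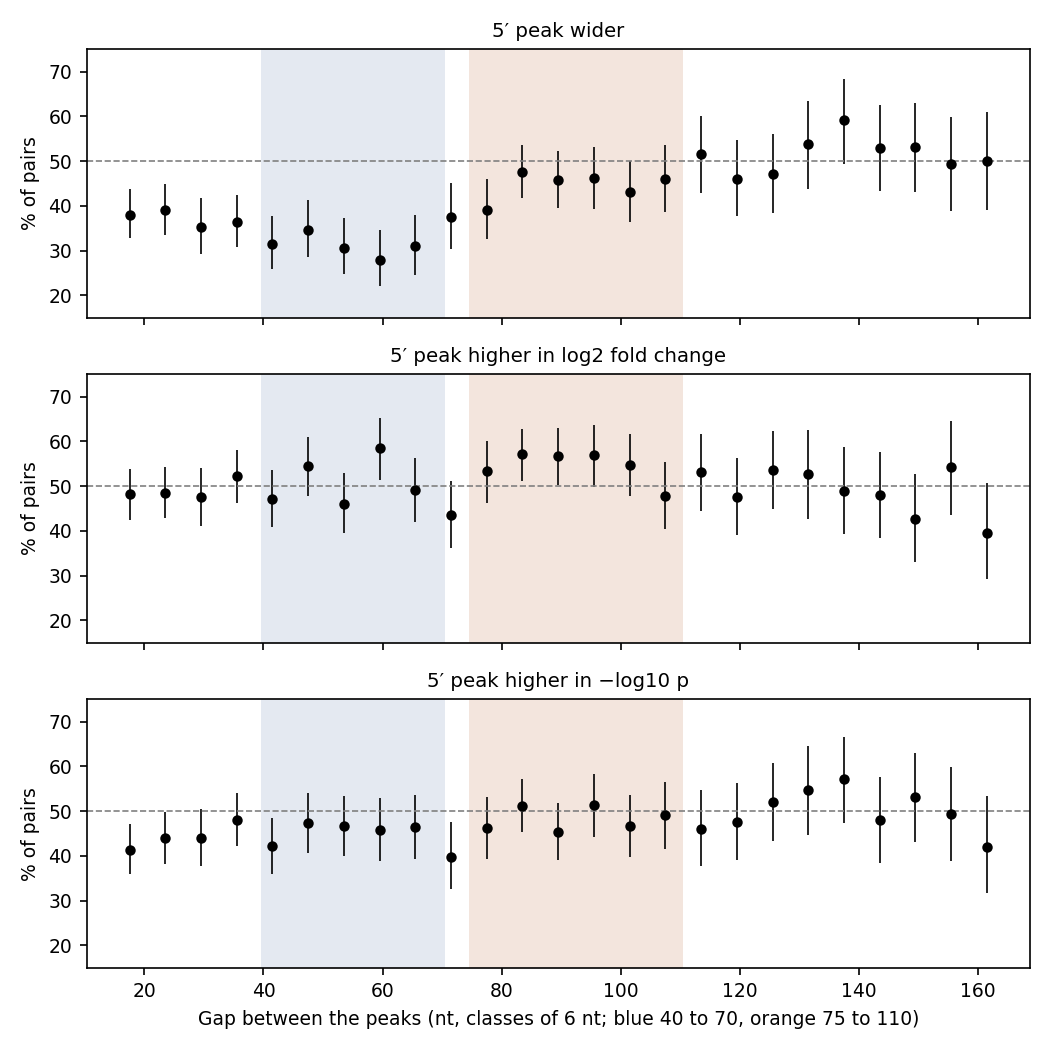
Percent of pairs in which the 5′ peak was the wider (top), the higher in log2 fold change (middle) or the higher in −log10 p (bottom), for gaps in classes of 6 nt from 15 nt upward. Bars are 95% Wilson intervals, blue shading marks 40 to 70 nt and orange 75 to 110 nt. The share with the wider 5′ peak climbs from 27.9% at 57 to 62 nt to 47.6% at 81 to 86 nt.

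In −log10 p, member pairs had no clear side. The 5′ peak was higher in 610 pairs (48.4%, Wilson interval 45.7 to 51.2%), lower in 648 and equal in 2, and both sides had a median of 11.0. Over all neighbouring pairs within 10 kb the 5′ peak was higher in 52.4%, and in control pairs in 45.1% (468 of 1037), with medians of 11.0 at the 5′ and 11.6 at the 3′ peak. The side followed width closely. Where the 5′ member peak was the wider, it had the higher −log10 p in 77.0% of pairs, and where it was the narrower, in 23.9%. Of the 257 member pairs with widths within 5 nt it was higher in 117 (45.5%), and of the 166 such control pairs in 112 (67.5%). These 2 sets were not matched to each other. Median widths were 13 nt on both sides in the member pairs, and 26.5 nt (5′) and 27 nt (3′) in the control pairs. Joining abutting peaks, with the highest −log10 p kept for each site, moved the member share past the middle to 52.6%. The list repeats some −log10 p values, with 156 peaks at 15.66 and 89 at 400, of which 12 and 3 were in member pairs. Without the pairs that held these values the member share was 48.3% of 1245.

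The stringent class of peaks, those at 8-fold (log2 of 3) or more with p at most 0.001, made up 32.3% of the whole list. The p limit removed no peak, since the lowest −log10 p in the list was 5.01, so fold change alone set this class. Among the peaks of member pairs it was 892 of 2467 (36.2%), and among those of control pairs 32.6%. Both peaks passed in 258 member pairs (20.5%, Wilson interval 18.3 to 22.8%), against 19.2% of all neighbouring pairs within 10 kb, 16.1% of control pairs and 19.6% over the 36 nt above the window. Only the 5′ peak passed in 218 member pairs and only the 3′ peak in 176, while neither passed in 608. Control pairs leaned the same way, with 194 (5′ only) and 147 (3′ only) of 1037. Over all 24193 neighbouring pairs within 10 kb the counts were nearly even, 3361 and 3349. The lean is therefore not particular to member gaps. Among the 6 nt classes of the window, the share with both past was highest at 81 to 86 nt, 25.1% of 275 pairs. In the 258 pairs with both past, the 5′ peak was higher in log2 fold change in 144 (55.8%), with medians of 3.51 at the 5′ and 3.44 at the 3′ peak. With 1 pair for each cluster, 33.0% of member peaks were past the threshold, near the share in the list.

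The peaks of a member pair were more alike in fold change than those of a control pair, although farther apart. Spearman's rho between the 5′ and the 3′ log2 fold change, across pairs and without a test, was 0.46 over 1260 member pairs and 0.32 over 1037 control pairs. Over all neighbouring pairs within 10 kb it was 0.48, so members were no more alike than the whole list. For abutting peaks it was 0.73, at 1 to 39 nt 0.49, at 71 to 74 nt 0.29, over the 36 nt above the window 0.46 and from 1 to 10 kb 0.36. Likeness thus fell up to the lower edge of the window and was higher again beyond it. It was highest among member classes at 87 to 92 nt, 0.56 over 229 pairs. For −log10 p, rho was 0.65 for members, 0.54 for controls and 0.65 over all neighbouring pairs within 10 kb. Width gave 0.23 for members and for controls, and 0.16 over all those pairs. Peaks of a pair share the libraries, their depth and often the locus.

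**Figure D4:**
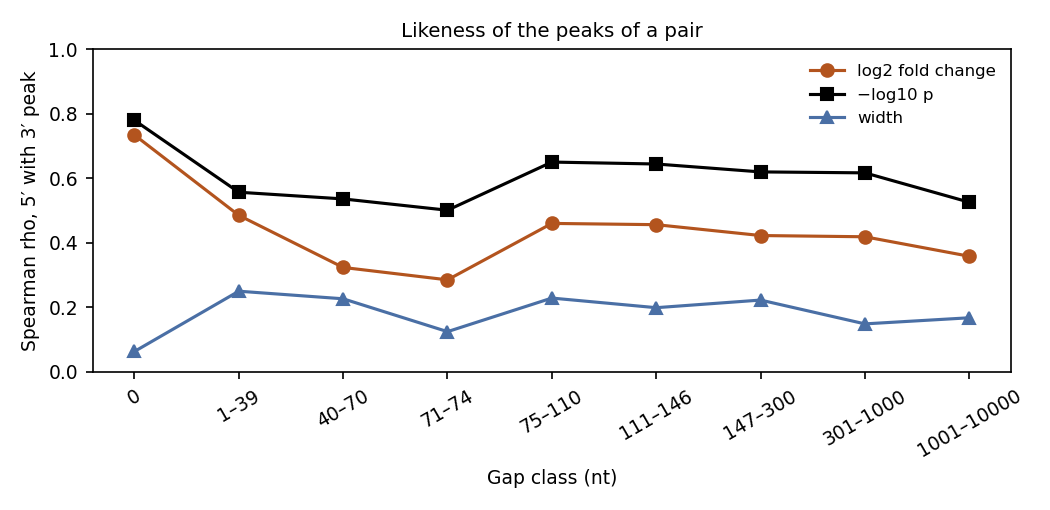
Spearman rho between the 5′ and the 3′ peak of a pair, for log2 fold change, −log10 p and width, in 9 classes of gap in nt from abutting (0) to between 1 and 10 kb. For log2 fold change rho is 0.32 at 40 to 70 nt and 0.46 at 75 to 110 nt.

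Member pairs were spread over many loci. Peaks within 10 kb of each other on a strand were joined into clusters, which gave 6570 clusters, and 783 of these held a member pair. A single member pair was found in 539 clusters, 2 in 133, 3 in 55 and at least 4 in 56. In 51 clusters the member pair was all there was. Clusters of at least 10 peaks held 881 member pairs (69.9%), against 64.5% of all neighbouring pairs within 10 kb and 68.9% of control pairs. Member and control pairs stood together in 269 clusters. Along these larger clusters, divided in 5 equal parts by the order of gaps from the 5′ to the 3′ end, member pairs made up 17.6, 19.8, 19.0, 22.9 and 20.8%, so they were found throughout.

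The clusters with the most member pairs were on chromosomes X and 1, with 10 each, and on chromosomes 15 and 4, with 9 each. The plus-strand cluster on chromosome X from 148269778 to 148367101 held 10 member pairs and 5 control pairs among 152 peaks. Its member gaps ran from 78 to 109 nt, and the 3′ peak was the higher in log2 fold change in 7 of the 10. The plus-strand cluster on chromosome 1 from 34209140 to 34286033 held 10 member pairs and 7 control pairs among 114 peaks, with a median gap of 90 nt. There the 5′ peak was the higher in 6, and the median widths were 11.5 nt (5′) and 19.5 nt (3′). The minus-strand cluster on chromosome 15 from 98670837 to 98701570 held 9 member pairs and 7 control pairs among 109 peaks, with gaps of 79 to 106 nt. The 5′ peak was the higher in 6 of its 9, and both peaks were past 8-fold in 3, with a median log2 fold change of 2.94 over the whole cluster. The plus-strand cluster on chromosome 4 from 137057078 to 137095582 held 9 member pairs and 7 control pairs among 93 peaks, with gaps of 79 to 109 nt. There the 3′ peak was the higher in 6 of the 9, and both peaks were past 8-fold in all 9. The median log2 fold change over all 93 peaks of that cluster was 3.36, itself past 8-fold. Over all neighbouring pairs within 10 kb, both peaks were past 8-fold in 19.2%. The 5′ peak was thus the higher more often in 2 of these 4 clusters and the 3′ peak in the other 2.

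Member gaps followed each other in 50 chains, listed as 47 chains of 3 peaks and 3 of 4, and the other 1157 pairs stood alone. In all, 53 peaks had a member gap on both sides, with a median width of 16 nt (quartiles 9 and 34 nt). Counting runs of abutting peaks as 1 site, 85 sites lay between such gaps, 32 of them made of several peaks, with a median width of 33 nt (quartiles 13 and 54 nt) and a maximum of 264 nt. For scale, internal exons of coding transcripts flanked on both sides by introns of 75 to 110 nt had a median length of 114 nt (quartiles 84 and 155 nt, 2359 exons, lengths only). Sites between member gaps were thus mostly shorter than such exons. Sites beside all non-abutting gaps within 10 kb were short too, with medians of 39 nt upstream and 37 nt downstream (upper quartiles 58 and 56 nt). The difference from exon length is therefore not particular to sites between member gaps.

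The longest chains can be read peak by peak. On the plus strand of chromosome 1, a peak of 1 nt at 34220818 was followed after 103 nt by a peak of 4 nt (34220922 to 34220925), after 92 nt by one of 65 nt (34221018 to 34221082) and after 89 nt by one of 23 nt (34221172 to 34221194). Their log2 fold changes were even, at 2.84, 2.90, 2.69 and 2.77, while −log10 p was 12.7, 14.6, 55.5 and 39.6. This chain belongs to the chromosome 1 cluster above. On the minus strand of chromosome 10, peaks of 18, 19, 38 and 8 nt lay between 126955528 to 126955545 at the 5′ end and 126955181 to 126955188 at the 3′ end, with gaps of 92, 98 and 92 nt. Their log2 fold changes were uneven, at 2.58, 3.62, 2.22 and 2.47, with the inner peak next to the first the highest.

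The remaining chain of 4 peaks was on the minus strand of chromosome 9, from 109987953 at its 5′ edge to 109987546, with widths of 38, 9, 56 and 11 nt and gaps of 109, 93 and 92 nt. Narrow and wide peaks alternated, and log2 fold changes were 2.27, 2.20, 2.43 and 2.85. The chain of 3 peaks with the highest median fold change was on the plus strand of chromosome 11. Its peaks of 17 nt (74473093 to 74473109) and 11 nt (74473196 to 74473206), 86 nt apart, had log2 fold changes of 4.26 and 4.48. A peak of 43 nt, 80 nt further on (74473287 to 74473329), had 2.20. The fall from 4.48 to 2.20 placed its last pair among the largest 5′ excesses of all members, while the first pair ranked among the strongest, so adjoining gaps of a locus can differ widely.

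**Figure D5:**
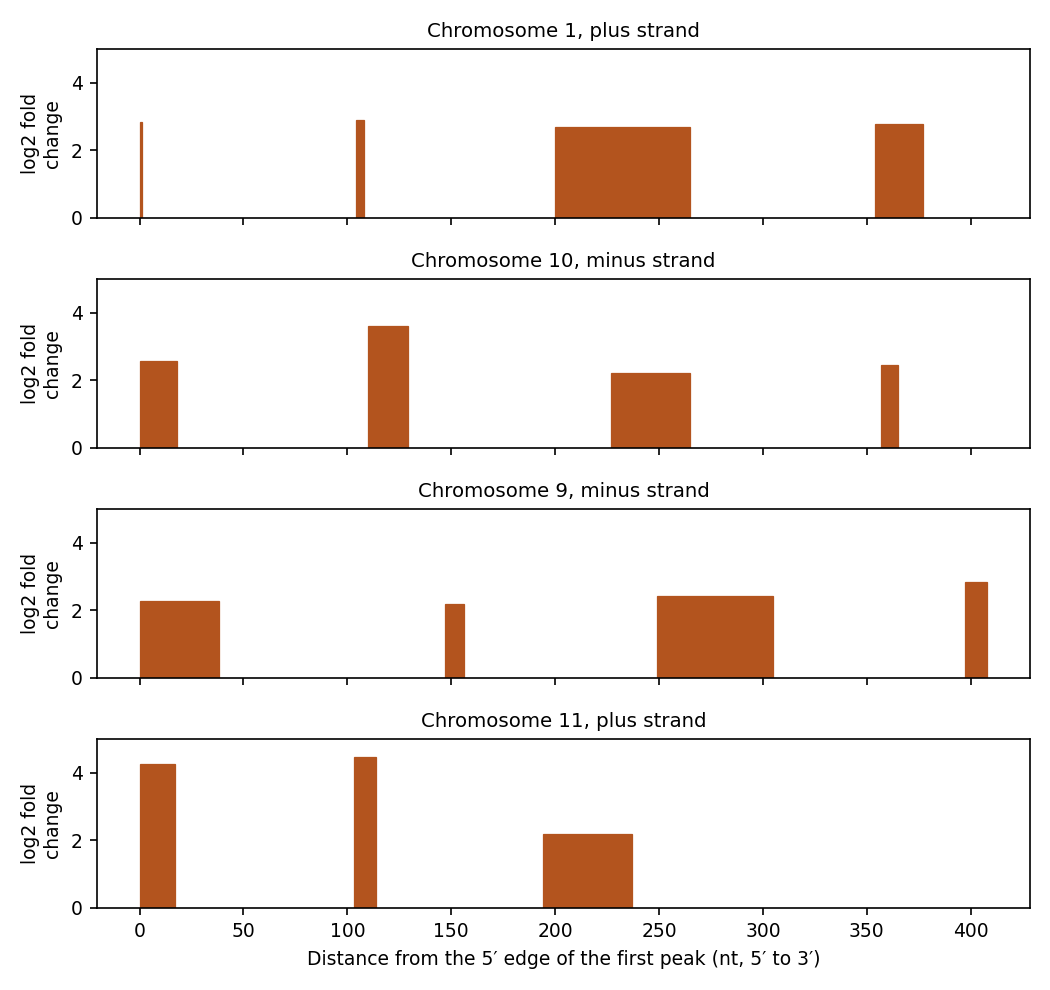
Peaks of 4 chains of successive gaps of 75 to 110 nt, drawn to scale along the distance in nt from the 5′ edge of the first peak, 5′ to 3′, with log2 fold change as the height. The chromosome 1 chain is level, from 2.69 to 2.90, and the chromosome 11 chain falls from 4.48 to 2.20.

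Ranked by the smaller log2 fold change of a pair, the strongest member pair lay on the minus strand of chromosome 9. Its 5′ peak of 11 nt (110527834 to 110527844) had 4.71 and its 3′ peak of 5 nt (110527723 to 110527727) had 4.66, across a gap of 106 nt. They were the only peaks of their cluster, and their −log10 p of 6.71 and 6.42 were low for the list. The pair in next place, on the minus strand of chromosome 13, had peaks of 59 and 58 nt (104110534 to 104110592 and 104110376 to 104110433), 100 nt apart, with 4.60 and 4.40, and again no other peak in the cluster. After the chromosome 11 pair came a pair on the minus strand of chromosome 2 with a gap of 86 nt, at 91779708 to 91779771 (64 nt, log2 fold change 4.39) and 91779617 to 91779621 (5 nt, 4.23). It sat in a cluster of 27 peaks with 5 member pairs. The last of the 5 was on the minus strand of chromosome 1 with a gap of 92 nt, with peaks of 5 and 4 nt (107485807 to 107485811 and 107485711 to 107485714) at 5.18 and 4.22.

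Unequal pairs occurred in both directions. The largest 5′ excess was on the minus strand of chromosome 9, where a 5′ peak of 30 nt (67192004 to 67192033) had a log2 fold change of 6.24 and a 3′ peak of 50 nt (67191879 to 67191928) had 3.88. At a gap of 75 nt it stood at the lower edge of the window. After the chromosome 11 pair above, the next was on the minus strand of chromosome 1, with 5.18 at 135282766 to 135282812 and 2.97 at 135282641 to 135282664, 101 nt apart. The largest 3′ excess was on the plus strand of chromosome 3, with 2.40 at 127311403 to 127311419 and 4.71 at 127311528 to 127311534, 108 nt apart. On the plus strand of chromosome 8 a 5′ peak of 30 nt (3635710 to 3635739) had 2.47 and a 3′ peak of 2 nt (3635835 to 3635836) had 4.77. On the plus strand of chromosome 7 the values were 2.29 at 104100134 to 104100198 and 4.44 at 104100279 to 104100340, 80 nt apart. Of these unequal pairs, the chromosome 8 and chromosome 3 ones had −log10 p between 6.0 and 7.0 on both sides, near the list's minimum of 5.01.

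The member pairs with the highest −log10 p on both sides had gaps of 82 and 83 nt and close fold changes. On the minus strand of chromosome 2, a 5′ peak of 40 nt (179933855 to 179933894) and a 3′ peak of 3 nt (179933770 to 179933772) had −log10 p of 82.8 and 73.2 and log2 fold changes of 3.52 and 3.38. On the minus strand of chromosome 1, peaks of 34 nt (71687850 to 71687883) and 25 nt (71687742 to 71687766) had 67.7 and 74.5, with log2 fold changes of 3.15 and 3.07. On the minus strand of chromosome 8, peaks of 11 nt (113344748 to 113344758) and 34 nt (113344631 to 113344664) had 64.8 and 65.3, with log2 fold changes of 3.17 and 3.51. These pairs stood in clusters of 84, 54 and 32 peaks.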

How the data were processed

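Per the submitters' processing notes, the tools were cutadapt 1.18 and STAR 2.6.1b and the genome build was mm9. Neither the labels nor the header name a peak caller, the test or any pooling of replicates. The deposited log2 fold change and −log10 p were used as the authors gave them. The lowest values, 2.00 and 5.01, show that the list was filtered. Start and end were both read as inside the peak. Peaks were sorted by chromosome, strand and start, and the gap was the start minus the previous end minus 1. The 5′ and 3′ peaks were assigned by strand. Members, controls and the rule for named pairs were chosen with earlier results of these data known. Pairs were named by position: the highest smaller fold change (5), the largest excess each way (3 each), the longest chains (4), the clusters with the most members (3, and 1 tied with the last) and the highest smaller −log10 p (3). With 1 list and no values per library, no test was made. Alternatives included other windows, single strands and joined abutting peaks. Functions were tested on simulated data. Python 3.11.15, numpy 2.4.6, pandas 2.3.3 and matplotlib 3.10.9 were used.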

Additional observations from a re-analysis of the deposited data

How the results depend on the processing

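Of 66 recomputed values, 51 stayed within 1.5 times (counts) or inside the main value's 95% interval (shares, rho). No paired analysis was possible because the list gives no values per replicate. The cause of each move below was not tested, except where fewer pairs follow by construction. The 1260 member pairs became 640 (plus strand), 620 (minus strand), 783 (1 pair for each cluster) and 258 (both peaks past 8-fold). With abutting peaks joined, 2 directions turned: the 5′ side had the higher −log10 p in 52.6% of member pairs instead of 48.4%, and was wider in 51.1% instead of 44.8%. In pairs of like width, an alternative added after seeing the data, the share with the higher −log10 p was 45.5%. The share of member peaks past 8-fold moved from 36.2% to 34.2% (plus strand), 38.2% (minus strand), 33.0% (1 pair for each cluster) and 3.93% (16-fold with p at most 1e-05). With the 36 nt above the window as control gaps in place of 40 to 70 nt, the 5′ peak had the higher −log10 p in 50.6% instead of 45.1% and was wider in 51.3% instead of 30.9%, so the width contrast holds against closer pairs and not against farther ones. The 5′ peak ended a run of abutting peaks in 24.4% instead of 27.0% with 1 pair for each cluster, and introns of 75 to 110 nt were 5.32% of all transcripts' introns instead of 5.86% (alternatives also added later). The share of member pairs with the higher log2 fold change at the 5′ peak ranged from 52.8 to 56.5%. Depth is unknown and limits every value.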

Other observations

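Chromosomes differed in how many of their neighbouring pairs had a gap of 75 to 110 nt. The share was 7.85% on chromosome X (59 of 752 pairs within 10 kb, Wilson interval 6.13 to 9.99%), 7.41% on chromosome 15 (96 of 1296, interval 6.10 to 8.96%) and 6.84% on chromosome 19 (44 of 643). At the other end it was 3.25% on chromosome 13 (18 of 554, interval 2.06 to 5.08%), 3.38% on chromosome 6 (27 of 800) and 3.77% on chromosome 18 (17 of 451), leaving out Y with 0 of only 9 pairs. On chromosome X, 10 of the 59 came from 1 cluster. Chromosome 11 held the most in number, 123 in 79 clusters. On 12 chromosomes with at least 50 such pairs, the 5′ peak had the higher log2 fold change in 45.9% (chromosome 2) to 65.6% (chromosome 15) of them, and in more than 50% on 10 of the 12. These differences were not tested.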
